A study of Homo sapiens with 12 samples.

Results

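The X-linked cancer-testis antigens are a set of gene families that are transcribed in germ cells of the testis and, among other adult tissues, mostly kept silent, but that many tumours switch on. Here they were followed in a pair of human prostate cancer cell lines and in the docetaxel-resistant lines selected from them. Members were the probe sets present in both deposited tables whose every annotated gene symbol begins with MAGEA, MAGEB or MAGEC plus a digit, GAGE, SSX plus a digit, PAGE plus a digit, XAGE, CT45, CTAG or CSAG. This gave 57 probe sets of 22215. Of these, 47 belong to 49 gene symbols that all lie on chromosome X: 10 probe sets of MAGEA genes, 5 of MAGEB, 4 of MAGEC, 5 of GAGE, 2 of PAGE, 1 of XAGE, 14 of SSX, 5 of CTAG and 1 of CSAG. The name pattern also takes in 6 probe sets of SSX2IP, the gene of a protein named for binding SSX2 and located on chromosome 1, and 4 of the autosomal CTAGE genes. These 10 are no X-linked cancer-testis antigens and are described apart. Many family members are near-identical copies: 22 of the 57 probe sets name several genes, and 36 carry a suffix that marks a set prone to cross-hybridization, so a signal often belongs to a group of copies and not to 1 gene.

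The series compared 4 groups of 3 arrays each. DU145-DR and 22Rv1-DR are docetaxel-resistant lines, and DU145 and 22Rv1 are the docetaxel-sensitive parental lines. All were grown in RPMI medium with 10% fetal bovine serum, the resistant lines with docetaxel in it and the parental lines without, so each comparison joins selection with exposure to the drug. Docetaxel is a taxane that stabilises microtubules. DU145 came from a brain metastasis of a prostate carcinoma and lacks the androgen receptor, while 22Rv1 came from a serially passaged prostate tumour graft and expresses it. The labels do not say how many selections stand behind each resistant line or whether the replicates were cultured apart, and a p-value then covers no more than how these arrays vary, which may be technical. Replicates 1 and 2 had been hybridised to an array of 22215 probe sets, and replicate 3 to a larger array of 54613. Tests used the 8 arrays of replicates 1 and 2. Replicate 3 gave 1 more resistant and parental pair per line, called the third pair, with no test. Of 4 measured prostate markers, KLK2 and HOXB13 were above the 60th percentile on every array of 22Rv1-DR and of 22Rv1, and 0 were in DU145-DR or DU145. Of the epithelial markers KRT8, KRT18, EPCAM and CDH1, all 4 passed that level in DU145, 22Rv1-DR and 22Rv1. In DU145-DR 3 did, with CDH1 at 38.6, 40.2 and 7.5. The fibroblast, leukocyte and germ cell markers measured (5, 3 and 5) were above it in 0 groups.

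As background, promoters of these genes are methylated in most adult tissues, and their loss of methylation, as after treatment with inhibitors of DNA methyltransferases, goes with their transcription. MAGE proteins share a domain that binds RING-type ubiquitin ligases and alters what those ligases mark for degradation. MAGEC2 and several MAGEA proteins bind TRIM28. SSX proteins are transcriptional corepressors whose genes are fused to SS18 in synovial sarcoma. CTAG1A and CTAG1B both encode NY-ESO-1, a tumour antigen used as a target in immunotherapy. Peptides of MAGE, GAGE, SSX and NY-ESO-1 proteins are presented to cytotoxic T cells on class I molecules.

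The 250 bases before the annotated start are printed for the genes whose values the results turn on, since some family members share promoter sequence. They are from RefSeq on GRCh38.p14, 5′ to 3′ on the strand of the gene, and capitals mark GGATGT or its reverse complement ACATCC. Proteins of the ETS family of transcription factors recognise a GGAA or GGAT core, and such sites are known in MAGEA promoters. The motif was chosen after the sequences had been read.
MAGEC2, chrX:142205291-142205540, minus strand: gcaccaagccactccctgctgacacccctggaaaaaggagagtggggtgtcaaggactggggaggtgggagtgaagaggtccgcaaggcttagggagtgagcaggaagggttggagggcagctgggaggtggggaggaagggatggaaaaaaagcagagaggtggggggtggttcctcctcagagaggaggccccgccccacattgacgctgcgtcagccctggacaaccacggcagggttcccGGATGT
MAGEC1, chrX:141903644-141903893, plus strand: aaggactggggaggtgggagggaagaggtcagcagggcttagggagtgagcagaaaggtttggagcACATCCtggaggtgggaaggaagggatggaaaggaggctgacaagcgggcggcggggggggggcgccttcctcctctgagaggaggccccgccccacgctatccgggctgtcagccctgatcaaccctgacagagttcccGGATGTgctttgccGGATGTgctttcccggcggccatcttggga
MAGEB2, chrX:30215313-30215562, plus strand: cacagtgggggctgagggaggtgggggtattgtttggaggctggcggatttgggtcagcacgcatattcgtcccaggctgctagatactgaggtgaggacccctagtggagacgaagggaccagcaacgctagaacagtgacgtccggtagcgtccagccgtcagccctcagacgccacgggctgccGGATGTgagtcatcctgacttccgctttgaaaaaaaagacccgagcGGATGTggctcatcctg
XAGE1A, chrX:52495627-52495876, plus strand: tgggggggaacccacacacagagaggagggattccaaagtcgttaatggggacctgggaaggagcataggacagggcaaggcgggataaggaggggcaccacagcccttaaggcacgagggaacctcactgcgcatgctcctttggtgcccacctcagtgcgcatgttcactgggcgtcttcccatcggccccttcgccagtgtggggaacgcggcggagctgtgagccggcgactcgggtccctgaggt
SSX2, chrX:52707228-52707477, minus strand: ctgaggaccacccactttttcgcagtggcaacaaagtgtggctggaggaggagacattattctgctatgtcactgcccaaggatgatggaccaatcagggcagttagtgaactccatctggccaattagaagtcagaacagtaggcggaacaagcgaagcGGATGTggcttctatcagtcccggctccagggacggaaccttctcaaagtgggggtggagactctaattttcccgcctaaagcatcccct
MAGEA3, chrX:152698544-152698793, plus strand: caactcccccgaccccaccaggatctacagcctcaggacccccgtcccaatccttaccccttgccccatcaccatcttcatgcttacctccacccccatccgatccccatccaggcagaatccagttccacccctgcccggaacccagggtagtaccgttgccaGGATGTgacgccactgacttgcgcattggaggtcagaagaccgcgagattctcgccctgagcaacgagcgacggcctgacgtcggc

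Promoters of 40 X-linked member genes were in the table. They held a median of 8 CG dinucleotides in these 250 bases (range 1 to 18), against a median of 11 (quartiles 3 and 23) over all 27305 promoters of the same length. MAGEC2 held 6, MAGEC1 11, MAGEB2 15, XAGE1A 14, SSX2 7 and MAGEA3 15. The 6 letters GGATGT, on either strand, were in 16 of the 40 promoters (40%) and in 8.56% of all promoters. As the motif was picked from sequences among these 40, a higher share in them is no test. The longer run CGGATGT, which contains the first and puts a CG dinucleotide at its start, was in 14 of the 40 (35%) and in 1.24% of all. By family, GGATGT was in 10 of 10 MAGEA, 2 of 3 MAGEC, 1 of 4 MAGEB, 2 of 7 SSX, 1 of 1 CSAG, 0 of 11 GAGE, 0 of 2 PAGE and 0 of 2 XAGE promoters. The windows of XAGE1A and XAGE1B were 100% identical, and so were those of MAGEA3 and MAGEA6, so some of these counts are over copies and not over independent genes. Compared base by base with no shift allowed, SSX2 and SSX2B matched at 24.4% of positions, and so did MAGEC1 and MAGEC2. Such a comparison misses sequence that is shared at shifted positions, so it does not measure how alike these promoters are. The printed windows of MAGEC1 and MAGEC2 do hold the same long runs of bases at different positions. A match is a string of letters in a window and no measured binding site.

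Many of these probe sets had high signal in 22Rv1-DR and 22Rv1, and nearly all were low in DU145-DR and DU145. Intensity floors differ between the lines in the 8-array table, with a 5th percentile of 35.8 to 38.6 on the DU145-DR and DU145 arrays and 11.5 to 12.3 on the 22Rv1-DR and 22Rv1 arrays, so levels were read as percentiles within each array. A probe set above the 60th percentile on every array of a group was counted as above background there. Of the 47 X-linked probe sets, 23 (48.9%) were above it in 22Rv1-DR and 23 (48.9%) in 22Rv1, against 1 (2.13%) in DU145-DR and 0 in DU145. Over all probe sets the shares were 36.7% in 22Rv1-DR, 36.8% in 22Rv1, 35.4% in DU145-DR and 35.4% in DU145. Most of those above it in 22Rv1-DR and 22Rv1 carry a suffix that marks cross-hybridization, as do 28 of the 47. Without such a suffix only CTAG2 (207337_at), MAGEA4, MAGEA2B;MAGEA2 and XAGE1A;XAGE1B were above it there. The counts are thus over overlapping probe sets and not over separate genes. In DU145-DR and in DU145, 43 of the 47 were under the 40th percentile on every array, and in 22Rv1-DR and in 22Rv1 16 were. The high families in 22Rv1-DR and 22Rv1 were CTAG (5 of 5 probe sets in each), MAGEA (6 of 10 in each), SSX (9 of 14 in 22Rv1-DR and 10 of 14 in 22Rv1), CSAG (1 of 1 in each) and XAGE (1 of 1 in each). The GAGE, MAGEB and PAGE probe sets (5, 5 and 2) were above it in 0 of the 4 groups. The map of percentiles shows this as a bright block in the 22Rv1-DR and 22Rv1 columns and a dark one in the DU145-DR and DU145 columns.

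**Figure D1:**
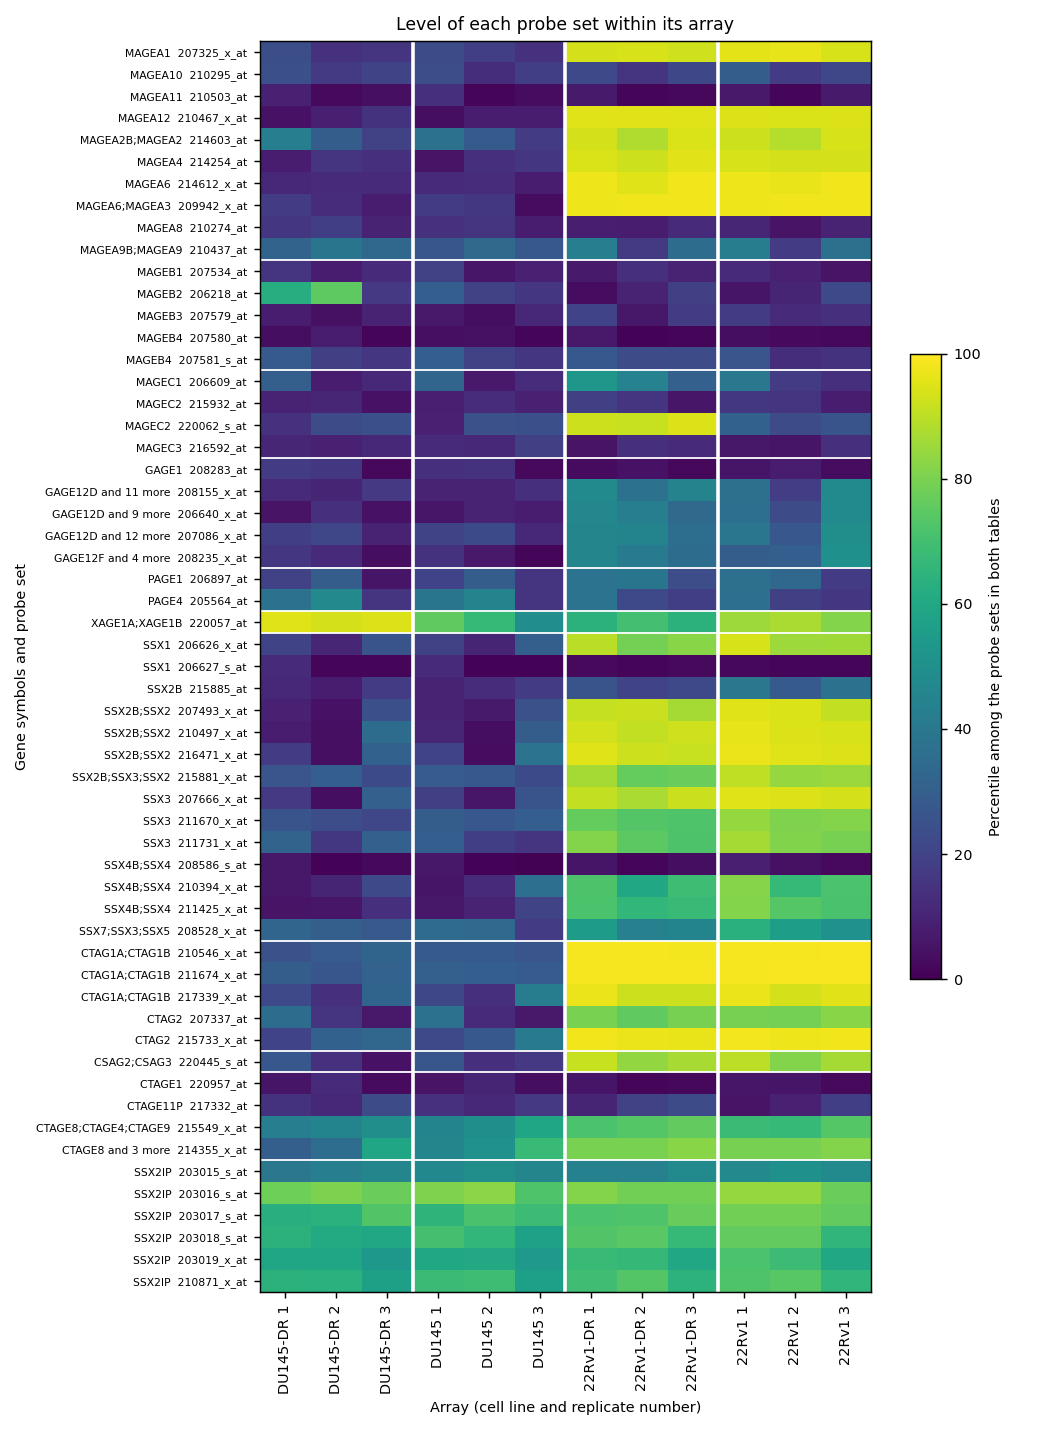
Percentile of each of the 57 probe sets (rows, by family) within each of the 12 arrays (columns, by line and replicate), coloured from 0 to 100 among the probe sets in both tables. Of the 47 X-linked probe sets, 23 exceed the 60th percentile on every array in 22Rv1-DR and in 22Rv1, against 1 in DU145-DR and 0 in DU145.

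The replicate 3 arrays had similar floors and allowed a direct comparison of the lines, with 1 array each and no test. Among the 47 X-linked probe sets, 23 were higher in 22Rv1-DR than in DU145-DR by at least 2 on the log2 scale, against 2.64% of all probe sets. In the parental lines 23 were higher in 22Rv1 than in DU145 by that much, against 2.06%. MAGEA6;MAGEA3 read 5914.3 in 22Rv1-DR and 13.2 in DU145-DR, a difference of 7.67, and 5996.9 in 22Rv1 and 11.3 in DU145, a difference of 7.78. The probe set with the largest difference of the parental lines, 7.95, was CTAG1A;CTAG1B. In the other direction 1 of 47 was lower in 22Rv1-DR than in DU145-DR (3.56% of all probe sets) and 0 of 47 lower in 22Rv1 than in DU145 (3.51%). The exception was XAGE1A;XAGE1B, which turned over: it was 2.74 higher in 22Rv1 than in DU145, and its difference between 22Rv1-DR and DU145-DR was -3.39.

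Between resistant and parental cells few members passed the test (limma with Benjamini-Hochberg adjustment over all 22215 probe sets, adjusted p under 0.05). In DU145-DR against DU145, 2 of 57 rose (MAGEB2 and XAGE1A;XAGE1B) and 1 fell (a CTAGE probe set), against 3.16% of all probe sets up and 3.06% down. In 22Rv1-DR against 22Rv1, 1 rose (MAGEC2) and 1 fell (XAGE1A;XAGE1B), against 1.69% up and 1.52% down. The change in 22Rv1 minus the change in DU145 was past the threshold upward for 2 (MAGEC2 and the CTAGE probe set) and downward for 2 (MAGEB2 and XAGE1A;XAGE1B), against 2.41% and 2.13% of all. In this fit, which has no block, the shares are near those of all probe sets, so its finding lies in which genes moved and by how much. The median change over the members was -0.034 in DU145 and -0.074 in 22Rv1, and over all probe sets it was -0.016 and 0.000. Same-numbered arrays of a line deviated together. In a fit that adds a block per line and replicate number, 2 members rose and 4 fell in DU145 (12.4% and 11.4% of all probe sets), and 7 rose and 15 fell in 22Rv1 (8.86% and 6.91%). The 15 that fell are a larger share of the 57 than 6.91%, and 11 of them are SSX probe sets, which are no independent measurements. With the block the difference between the lines was past the threshold upward for 7 and downward for 13 (11.4% and 10.5%). The scatter of both sets of changes shows where replicate 3 repeats the others.

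**Figure D2:**
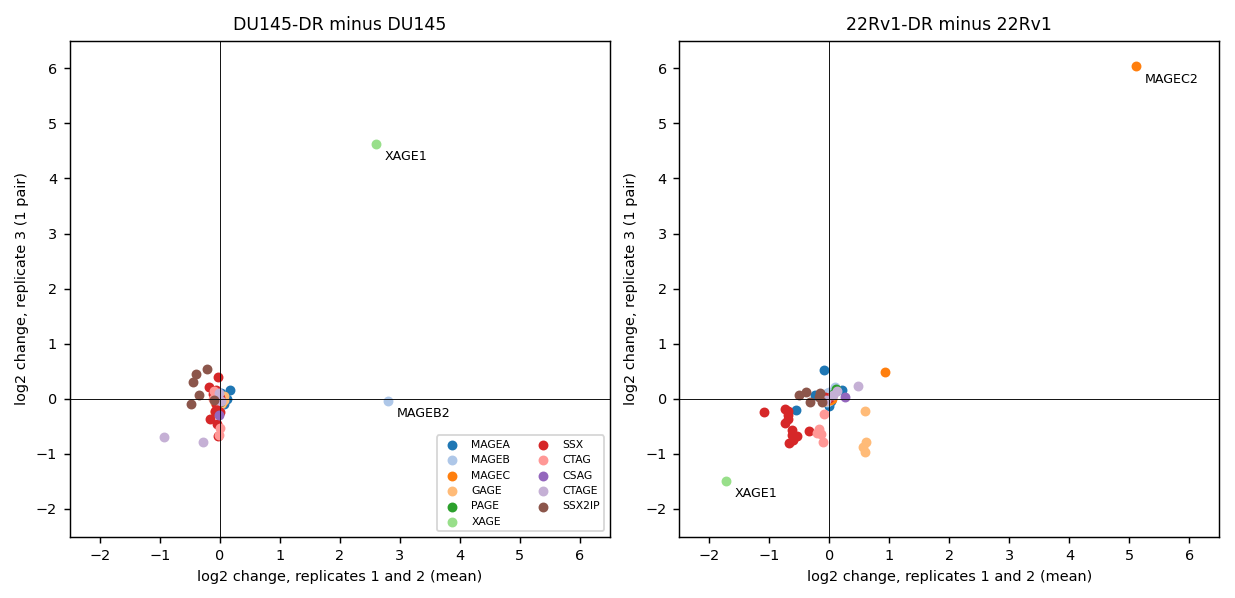
Each point is 1 of the 57 probe sets, coloured by family: the x axis gives its resistant minus parental change in log2(intensity + 16) from replicates 1 and 2, the y axis that of replicate 3, for DU145 (left) and 22Rv1 (right). MAGEC2 in 22Rv1 (5.11 and 6.04) and XAGE1 in DU145 (2.60 and 4.63) are high on both axes, while MAGEB2 in DU145 (2.80 and -0.04) is high on the x axis alone.

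MAGEC2, also known as CT10 and a partner of TRIM28, was high in 22Rv1-DR and near the floor in 22Rv1. Its probe set 220062_s_at had intensities of 1341.8, 1209.3 and 2592.3 in 22Rv1-DR, against 24.3, 18.5 and 23.8 in 22Rv1. That placed it at percentiles 92.3, 91.6 and 94.8 of the 22Rv1-DR arrays and 30.9, 22.9 and 25.8 of the 22Rv1 arrays, so the groups lay far apart and the parental level was near the floor. On the log2(intensity + 16) scale, which understates changes from a low level, it rose by 5.11 ± 0.18 (SE, 2 arrays per group, limma adjusted p = 0.000113), and the third pair gave 6.04. In DU145-DR it read 51.3, 59.3 and 22.0, against 45.3, 62.2 and 24.1 in DU145 (0.04, adjusted p = 1), all low on their arrays. The change in 22Rv1 exceeded that in DU145 by 5.07 ± 0.25 (adjusted p = 0.000407 for the difference, limma). A change in the share of cells with the transcript and a change in its amount per cell cannot be told apart in such bulk RNA. A second MAGEC2 probe set, 215932_at, read 17.0, 15.1 and 12.9 in 22Rv1-DR, against 16.3, 15.1 and 13.3 in 22Rv1. It stayed at the floor in all 4 groups, so the rise rests on 220062_s_at, whose suffix marks it as prone to cross-hybridization.

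MAGEC1, also known as CT7 and the neighbour of MAGEC2 on chromosome X, moved less. It read 86.2, 42.2 and 29.2 in 22Rv1-DR, against 35.5, 16.2 and 16.1 in 22Rv1. Each 22Rv1-DR value was above the 22Rv1 value of the same number, with differences of 0.99, 0.85 and 0.49 on the log2 scale, although the groups overlapped. Its change of 0.92 ± 0.49 did not pass without the block (limma adjusted p = 0.575) and passed with it (adjusted p = 0.00492). The levels remained low, at percentiles 53.1, 44.4 and 30.5 in 22Rv1-DR and 40.2, 17.8 and 13.7 in 22Rv1. In DU145-DR against DU145 the change was -0.07. MAGEC3 was at most 15.9 on the 22Rv1-DR and 22Rv1 arrays and had a change of 0.05. The promoters of MAGEC1 and MAGEC2 printed above both hold GGATGT. So do 10 of 10 MAGEA promoters, and 0 of the 10 MAGEA probe sets rose past the threshold in 22Rv1. Any link of the motif to these changes was not tested.

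XAGE1A and XAGE1B, copies of 1 gene that share probe set 220057_at, moved in opposite directions in the lines. The XAGE1 protein is a tumour antigen known from sarcomas and lung cancer. The probe set read 3821.7, 4039.6 and 2504.0 in DU145-DR, against 760.1, 526.4 and 85.6 in DU145, with no overlap. Its percentiles were 93.4 or higher on the DU145-DR arrays and 75.5, 66.8 and 48.9 on the DU145 arrays, which makes it the 1 X-linked member above the 60th percentile on every DU145-DR array. It rose by 2.60 ± 0.21 on the log2 scale (SE, limma adjusted p = 0.00149), and by 4.63 on the third pair. In 22Rv1-DR it read 178.5, 230.7 and 224.4, against 666.3, 754.8 and 661.7 in 22Rv1, again with no overlap. There it fell by 1.73 ± 0.21 (limma adjusted p = 0.00777), and the third pair gave -1.495. The 22Rv1 change minus the DU145 change was -4.33 ± 0.30 (limma adjusted p = 0.00104). The fall in 22Rv1 lost its call without 22Rv1-DR replicate 1 (adjusted p = 0.0752), without 22Rv1 replicate 1 (0.0635) or replicate 2 (0.0853), and in a fit of 12 arrays with the array type as a block (0.0775), whereas the change itself stayed between -1.90 and -1.53.

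**Figure D3:**
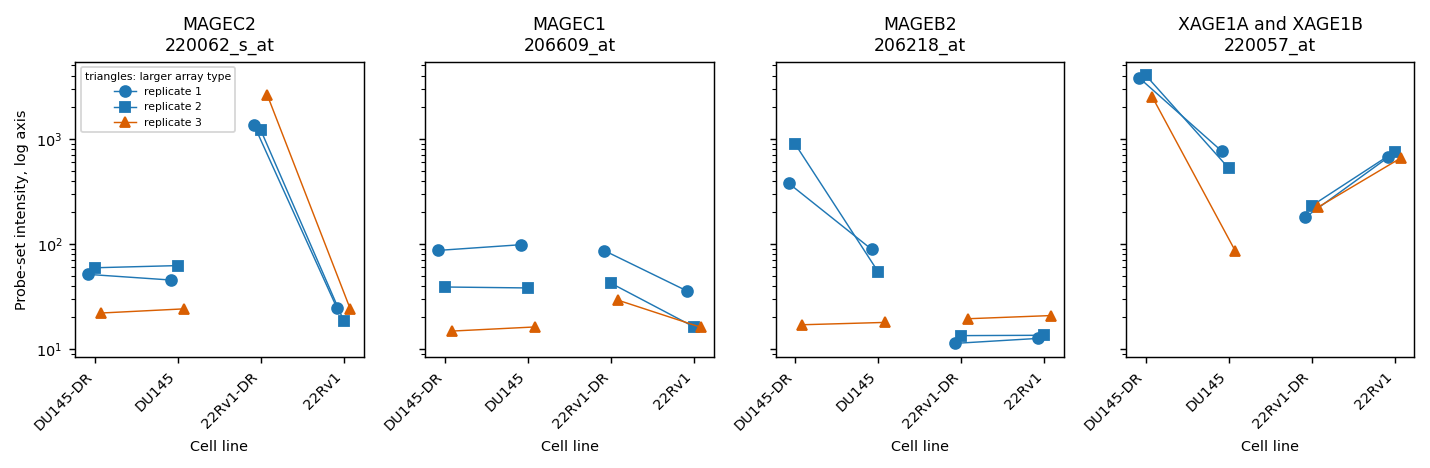
Probe-set intensity on a log axis for MAGEC2, MAGEC1, MAGEB2 and XAGE1 in DU145-DR, DU145, 22Rv1-DR and 22Rv1, with a line joining the arrays of the same line and replicate number and triangles for replicate 3 on the larger array type. MAGEC2 is at 1209.3 to 2592.3 in 22Rv1-DR against 18.5 to 24.3 in 22Rv1, and MAGEB2 is raised in DU145-DR replicates 1 and 2 and not in replicate 3.

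MAGEB2, which encodes a testis-expressed MAGE protein and lies on the short arm of chromosome X, apart from the MAGEA and MAGEC clusters, differed between replicates. It read 377.4, 885.3 and 17.0 in DU145-DR, against 88.6, 53.8 and 17.9 in DU145. Replicates 1 and 2 of DU145-DR lay above every DU145 array, at percentiles 62.4 and 75.1, while replicate 3 lay at percentile 16.5 against 15.7 in DU145 replicate 3. Over replicates 1 and 2 it rose by 2.80 ± 0.38 (SE, limma adjusted p = 0.00971), with pair differences of 1.91 and 3.69. The third pair gave -0.04, so the rise was measured on 2 of 3 pairs and was absent from the third. As replicate 3 is also on the larger array type, replicate and array type cannot be told apart here. It missed the threshold without DU145 replicate 2 (adjusted p = 0.0566), with only the 4 DU145-DR and DU145 arrays fitted (0.117), and in the fit of 12 arrays (0.157), where the change was 1.85. In 22Rv1-DR it read 11.3, 13.4 and 19.4, against 12.6, 13.5 and 20.8 in 22Rv1, all at the floor. The difference between the lines was -2.84 ± 0.54 (limma adjusted p = 0.0353), and it missed the threshold in 8 of 17 alternatives, among them leaving out either replicate of DU145, 22Rv1-DR or 22Rv1 (adjusted p 0.0625 to 0.139). The other MAGEB probe sets, of MAGEB1, MAGEB3 and MAGEB4, were at most 21.9 on the 22Rv1-DR and 22Rv1 arrays and had changes from -0.07 to 0.03 in DU145.

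Most SSX probe sets had signal in 22Rv1-DR and 22Rv1, and most read lower in 22Rv1-DR, though 0 of 14 passed the test as fitted without a block. Of 14 probe sets, 12 were lower in 22Rv1-DR than in 22Rv1 in all 3 replicate pairs, against 19.6% of all probe sets. The 10 above the 60th percentile in 22Rv1-DR or 22Rv1 were all lower, against 26.2% of all probe sets above that level. Over the 14 the median change was -0.65 (range -1.09 to 0.00) on replicates 1 and 2 and -0.41 (range -0.80 to 0.04) on the third pair. SSX genes are near-identical in sequence and several probe sets share a target, so they are no independent measurements. In 22Rv1, 10 of the 14 were above the 60th percentile on every array, and 9 of these in 22Rv1-DR too. All 10 carry a suffix that marks cross-hybridization. Probe sets 206627_s_at, 208586_s_at and 215885_at, of some of the same genes, were low. Of these, 215885_at alone carries no such suffix. For SSX1, 206627_s_at had a change of 0.00. For SSX4B;SSX4, 208586_s_at read at most 12.2 in 22Rv1-DR and 13.5 in 22Rv1. SSX2B (215885_at) read 20.4, 17.1 and 21.4 in 22Rv1-DR, against 35.5, 21.6 and 40.2 in 22Rv1. The signal of the family thus rests on probe sets that may not tell its genes apart.

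SSX1, whose fusion with SS18 is found in synovial sarcoma, read 982.3, 407.3 and 699.4 in 22Rv1-DR, against 1640.6, 652.6 and 910.2 in 22Rv1 (probe set 206626_x_at). The groups overlapped, and within each replicate number the 22Rv1-DR array was lower. Probe set 207493_x_at of SSX2B;SSX2 read 1160.1, 1226.2 and 982.3 in 22Rv1-DR, against 1978.2, 1710.3 and 1552.1 in 22Rv1, with no overlap. SSX3 (207666_x_at) read 1144.1, 754.8 and 1734.1 in 22Rv1-DR, against 2091.0, 1910.9 and 2062.2 in 22Rv1, also with no overlap and with the lowest change of the family, -1.09 ± 0.29 (limma adjusted p = 0.125). SSX4B;SSX4 (211425_x_at) read 280.1, 178.5 and 278.2 in 22Rv1-DR, against 487.8, 280.1 and 344.9 in 22Rv1. The other SSX2B;SSX2 probe sets ranged from 1112.8 to 1937.5 in 22Rv1-DR and from 1871.5 to 2521.4 in 22Rv1 (210497_x_at), and from 1305.2 to 2019.8 in 22Rv1-DR and from 2048.0 to 3082.7 in 22Rv1 (216471_x_at). Probe set 215881_x_at, of SSX2B;SSX3;SSX2, ranged from 342.5 to 739.3 in 22Rv1-DR and from 584.1 to 1038.3 in 22Rv1. Such a probe set can take signal from several genes. The other SSX3 probe sets ranged from 276.3 to 380.0 in 22Rv1-DR and from 445.7 to 675.6 in 22Rv1 (211670_x_at), and from 308.7 to 501.5 in 22Rv1-DR and from 467.9 to 724.1 in 22Rv1 (211731_x_at). Probe set 210394_x_at, of SSX4B;SSX4, ranged from 117.8 to 300.2 in 22Rv1-DR and from 183.5 to 508.5 in 22Rv1. Among the probe sets of this paragraph the ranges of 22Rv1-DR and 22Rv1 were apart for 207493_x_at, 207666_x_at, 216471_x_at and 211670_x_at, and met or overlapped for the rest. Those of SSX2B (215885_at) were apart by little, at 17.1 to 21.4 in 22Rv1-DR and 21.6 to 40.2 in 22Rv1.

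In the fit of 8 arrays without a block, 0 of the 14 SSX probe sets passed in 22Rv1, with limma adjusted p from 0.111 to 0.874 for the 11 that did pass with the replicate block (adjusted p 0.006 to 0.0237). Of these, 10 are the ones above the 60th percentile in 22Rv1. The other, of SSX7;SSX3;SSX5, was under the 60th percentile on some arrays, at 39.9 to 101.1 in 22Rv1-DR and 88.0 to 159.8 in 22Rv1. The background share with the block was 6.91% downward. Other settings without a block also gave calls: SSX2B;SSX2 (207493_x_at) passed at a pseudocount of 64 (adjusted p = 0.0481) and with quantile normalization (0.0485), and SSX3 (207666_x_at) with quantile normalization (0.0459) and with arrays shifted to 1 median (0.0402). Leaving out 22Rv1 replicate 1 turned the change of SSX4B;SSX4 probe set 210394_x_at to 0.01, where it was -0.69 with all arrays. In DU145-DR and DU145 the SSX probe sets were near the floor, and their median change was -0.06, with 0 past the threshold with or without the block. The plot of differences by pair shows the shift in 22Rv1 beside the values around 0 in DU145.

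**Figure D4:**
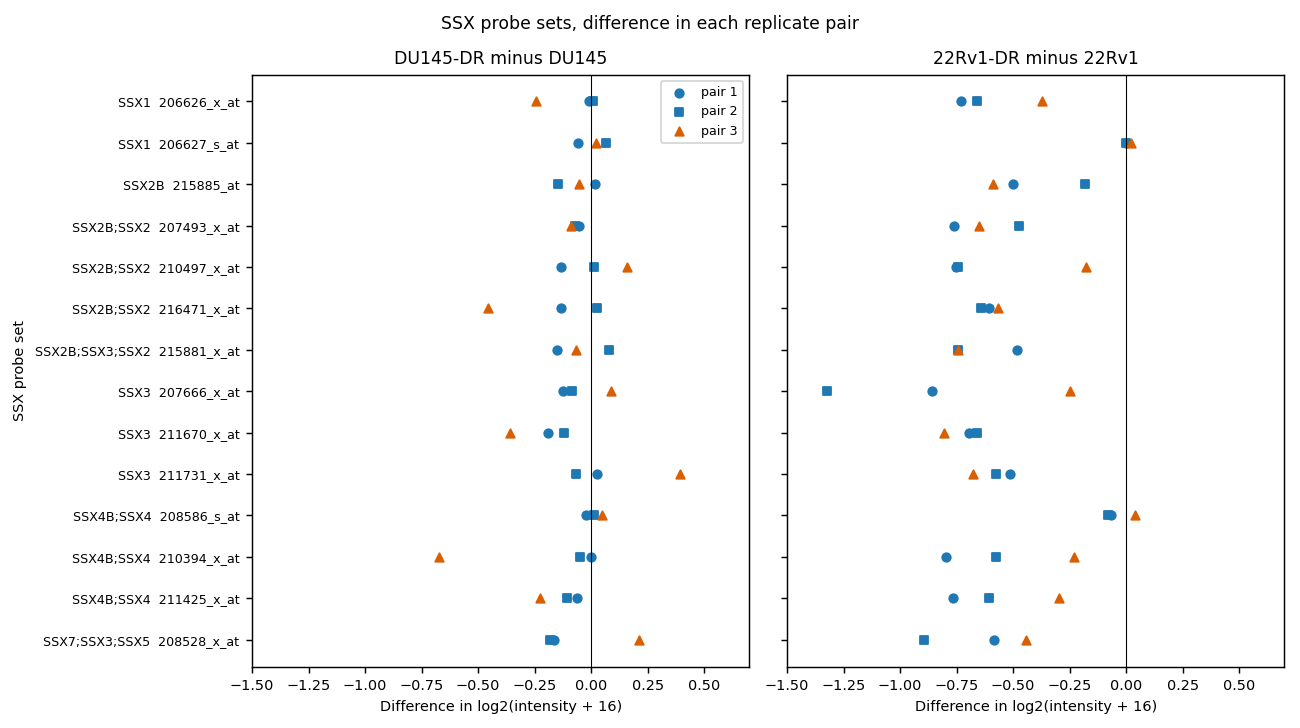
Resistant minus parental difference in log2(intensity + 16) for the 14 SSX probe sets (rows) in each replicate pair (symbols) in DU145 (left) and 22Rv1 (right). In 22Rv1, 12 of the 14 lie below 0 in all 3 pairs, and the median is -0.65 over replicates 1 and 2 and -0.41 on the third pair.

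The MAGEA genes, the classical MAGE antigens in a cluster at the end of the long arm of chromosome X, were high in 22Rv1-DR and 22Rv1 alike. MAGEA6;MAGEA3 (209942_x_at) read 3875.1, 4211.2 and 5914.3 in 22Rv1-DR, against 3902.0, 4359.7 and 5996.9 in 22Rv1, a change of -0.03 ± 0.16. MAGEA12 read 2005.9, 2210.3 and 2817.1 in 22Rv1-DR, against 1858.6, 1795.3 and 2504.0 in 22Rv1 (0.20 ± 0.13, limma adjusted p = 0.758). MAGEA4 read 1746.2, 1296.1 and 2977.7 in 22Rv1-DR, against 1675.1, 1530.7 and 2076.6 in 22Rv1 (-0.09 ± 0.18). None of the 3 passed the test in 22Rv1, with or without the block, and the groups overlapped in each. MAGEA6 (214612_x_at, 2105.6 to 5712.9 in 22Rv1-DR and 2817.1 to 5442.3 in 22Rv1) and MAGEA2B;MAGEA2 (809.0 to 2418.7 in 22Rv1-DR and 867.1 to 2256.7 in 22Rv1) overlapped too. MAGEA1, the founding member of the family, read 1595.7, 1663.5 and 1910.9 in 22Rv1-DR, against 2288.2, 2538.9 and 2195.0 in 22Rv1, with no overlap. Its change of -0.56 ± 0.20 passed with the block (limma adjusted p = 0.0125) and not without it (0.278), and the third pair gave -0.20. MAGEA8, MAGEA9B;MAGEA9, MAGEA10 and MAGEA11 stayed between 9.8 and 41.4 on the 22Rv1-DR and 22Rv1 arrays, so 6 of the 10 MAGEA probe sets were high and 4 low in the same cells.

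NY-ESO-1 was high in 22Rv1-DR and 22Rv1 alike. CTAG1A;CTAG1B (210546_x_at) read 6208.4, 5832.9 and 6038.6 in 22Rv1-DR, against 6746.9, 6251.6 and 10369.1 in 22Rv1. In DU145-DR the same probe set read 71.5, 70.0 and 30.1, against 85.0, 70.0 and 26.0 in DU145. It was at percentile 98.1 or higher of every 22Rv1-DR and 22Rv1 array, and at most 32.4 of the DU145-DR and DU145 arrays. The other CTAG1A;CTAG1B probe sets read 6122.9 to 7643.4 in 22Rv1-DR and 6793.8 to 11113.3 in 22Rv1 (211674_x_at), and 1296.1 to 3147.5 in 22Rv1-DR and 1552.1 to 3191.5 in 22Rv1 (217339_x_at). The remaining CTAG2 probe set, 207337_at, read 326.3 to 580.0 in 22Rv1-DR and 396.2 to 709.2 in 22Rv1. CTAG2, which encodes the related LAGE-1 antigen, read 4211.2, 2957.2 and 3666.0 in 22Rv1-DR, against 4837.3, 3420.5 and 5673.4 in 22Rv1 (215733_x_at). Of the 5 CTAG probe sets, 4 were lower in 22Rv1-DR in all 3 pairs. The share was 19.6% of all probe sets and 26.2% of those above the 60th percentile in 22Rv1-DR or 22Rv1. The median change over the 5 was -0.14 over replicates 1 and 2 and -0.63 on the third pair, and 0 passed the test with or without the block. CSAG2;CSAG3, genes interleaved with the MAGEA cluster, read 1217.7, 568.1 and 1009.9 in 22Rv1-DR, against 1009.9, 471.1 and 989.1 in 22Rv1 (0.26 ± 0.49).

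GAGE and PAGE genes, which encode small acidic proteins of the testis, had 0 probe sets above the 60th percentile on all arrays of any group. GAGE genes are tandem copies, and 4 of the 5 probe sets name several of them. Probe set 208155_x_at read 58.1, 30.1 and 60.1 in 22Rv1-DR, against 30.7, 16.3 and 72.5 in 22Rv1, and 208235_x_at read 50.2, 36.0 and 36.8 in 22Rv1-DR, against 23.3, 22.6 and 87.4 in 22Rv1. The 4 multi-copy probe sets had changes of 0.57 to 0.61 over replicates 1 and 2 that passed with the block (limma adjusted p 0.0114 to 0.0276) and not without it (0.205 to 0.447). On the third pair all 4 had the opposite sign, from -0.97 to -0.22. Of all probe sets, 8.86% rose in 22Rv1 with the block. These 4 probe sets were between percentiles 18.0 and 50.3 of the 22Rv1-DR and 22Rv1 arrays. Replicate 3 is also the array on the larger type, so replicate and array type cannot be told apart here. PAGE4, a gene with high expression in the prostate gland, read 32.4, 18.1 and 19.2 in 22Rv1-DR, against 30.1, 16.7 and 17.1 in 22Rv1. It was low in DU145-DR (113.0, 154.3 and 16.3) and DU145 (126.2, 139.1 and 17.6) relative to their arrays as well.

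Of the 10 autosomal probe sets taken in by name, 1 passed. The CTAGE8;CTAGE4;CTAGE9;CTAGE15 probe set 214355_x_at read 86.2, 89.3 and 164.3 in DU145-DR, against 170.1, 195.4 and 274.4 in DU145. CTAGE genes were named for a cutaneous T-cell lymphoma antigen and are copies of a gene family with a role in export from the endoplasmic reticulum. DU145-DR lay below DU145 in each replicate pair, and the value fell by 0.93 ± 0.14 (limma adjusted p = 0.0122), with -0.69 on the third pair. Over both array types the groups had no overlap, but the closest values, 164.3 in DU145-DR and 170.1 in DU145, are from different types. It missed the threshold when DU145 replicate 2 was left out (adjusted p = 0.0597), with only the 4 DU145-DR and DU145 arrays (0.142) and in the 12-array fit (0.189). In 22Rv1-DR it read 451.9, 424.6 and 704.3, against 427.6, 410.1 and 666.3 in 22Rv1 (0.06). The change in 22Rv1 minus that in DU145 was 1.00 ± 0.19 (adjusted p = 0.0376), past the threshold in 3 of 17 alternatives. A second CTAGE probe set, 215549_x_at, read 143.0, 139.1 and 86.2 in DU145-DR, against 163.1, 184.8 and 160.9 in DU145 (adjusted p = 0.453), and 280.1, 286.0 and 474.4 in 22Rv1-DR, against 218.3, 181.0 and 401.7 in 22Rv1 (adjusted p = 0.192, and 0.0437 with the block). SSX2IP, a centrosome protein gene, was measured in all 4 groups, with 4 of 6 probe sets above the 60th percentile in 22Rv1-DR and 22Rv1 and 2 of 6 in DU145-DR and DU145. Its probe set 203016_s_at read 891.4, 1252.0 and 537.5 in DU145-DR, against 1038.3, 1458.2 and 364.6 in DU145, and 501.5, 396.2 and 556.4 in 22Rv1-DR, against 608.9, 576.0 and 512.0 in 22Rv1. The 6 SSX2IP probe sets had median changes of -0.37 in DU145 and -0.25 in 22Rv1, and 0.19 and 0.05 on the third pair. In the fit without a block 0 of the 6 passed, and with the block 3 fell in DU145 (limma adjusted p 0.0125 to 0.0367) and 2 in 22Rv1 (0.0429 to 0.0461). Of all probe sets, 11.4% fell in DU145 with the block and 6.91% in 22Rv1. At a pseudocount of 64, 203015_s_at passed in DU145 without the block (adjusted p = 0.0446).

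Genes outside the name rule were counted from the same fit, with 1 probe set per gene, from lists drawn up with earlier results of these data known. Over 11963 genes 3.83% rose and 3.52% fell in DU145, and 2.08% rose and 1.76% fell in 22Rv1. Of 7 measured type II and other MAGE genes, which are widely expressed relatives, MAGEH1 rose in DU145 and NDN fell in 22Rv1. MAGEH1 read 1024.0, 1128.4 and 270.6 in DU145-DR, against 530.1, 699.4 and 227.5 in DU145 (0.80 ± 0.17, limma adjusted p = 0.0404). NDN, the imprinted gene of necdin, read 23.1, 22.5 and 31.6 in 22Rv1-DR, against 159.8, 157.6 and 147.0 in 22Rv1 (-2.17 ± 0.13, adjusted p = 0.000437, with -1.78 on the third pair). NDN was near the floor in 22Rv1-DR, so that change is limited by the floor. The other 5 genes did not pass in either line without the block. With it 2 of the 7 rose and 1 fell in DU145, and 3 fell in 22Rv1 (14% of all genes up and 12.6% down in DU145, 9.98% and 7.68% in 22Rv1). MAGEF1 had a change of -1.21 in 22Rv1 (adjusted p = 0.0632, 0.00165 with the block) and -1.13 on the third pair. MAGED2 had 0.63 in DU145 (0.0696, 0.00952 with the block) with -0.03 on the third pair, and -0.62 in 22Rv1 (0.111, 0.0136 with the block) with -0.38.

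Of 31 measured cancer-testis genes outside the rule, BRDT fell in DU145 and IL13RA2 rose in 22Rv1 in the fit without a block, and with it 3 fell in DU145 and 2 rose and 1 fell in 22Rv1. BRDT, which encodes the testis bromodomain protein, read 102.5, 90.5 and 15.3 in DU145-DR, against 410.1, 410.1 and 50.2 in DU145 (-1.92 ± 0.14, limma adjusted p = 0.000951, with -1.08 on the third pair). IL13RA2, a decoy receptor for interleukin 13, read 820.3, 744.4 and 388.0 in 22Rv1-DR, against 19.7, 15.6 and 16.4 in 22Rv1 (4.57 ± 0.33, adjusted p = 0.000849, with 3.64 on the third pair). It was near the floor on every 22Rv1 array and well above it on every 22Rv1-DR array. In DU145-DR it read 110.7, 42.5 and 164.3, against 33.6, 29.7 and 21.4 in DU145 (0.86 ± 0.33, adjusted p = 0.231, with 2.27 on the third pair), higher in each pair. PRAME, another T-cell antigen, had changes of 0.28 in DU145 and 0.43 in 22Rv1, neither past the threshold. The enzymes and readers of DNA methylation (13 measured), the regulators of histone methylation and deacetylation (20), the ubiquitin ligases and partners of MAGE proteins (12) and the germ cell genes that are not X-linked cancer-testis antigens (12) had 0 genes past the threshold in either line without the block. With the block 2 of the 13 DNA methylation genes rose and 2 fell in DU145, and 0 rose and 2 fell in 22Rv1. DNMT1, the maintenance methyltransferase, was among them with 0.41 in DU145 (limma adjusted p = 0.338, 0.0192 with the block, 0.34 on the third pair) and -0.56 in 22Rv1 (0.245, 0.0122 with the block, -0.14 on the third pair). Larger changes were those of HELLS in 22Rv1 (-1.41, limma adjusted p = 0.0558, 0.00267 with the block, -0.78 on the third pair) and MBD1 in DU145 (0.79, 0.0524, 0.00595 with the block, 0.95 on the third pair). TRIM28 had changes of 0.42 in DU145 (adjusted p = 0.621, 0.0240 with the block, 1.67 on the third pair) and -0.37 in 22Rv1 (0.892, 0.0456 with the block, 0.50 on the third pair). With the block 2 histone genes rose and 2 fell in DU145 and 1 fell in 22Rv1. Among the ligases and partners 3 rose and 1 fell in DU145 and 2 fell in 22Rv1, and among the germ cell genes 2 fell in DU145 and 1 rose in 22Rv1. The shares over all genes with the block were 14% up and 12.6% down in DU145, and 9.98% up and 7.68% down in 22Rv1.

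The 3 nearest measured genes on each side of the members on chromosome X gave 53 neighbours, taken by order with no limit on distance. In DU145, 4 of the 53 (7.55%) passed, against 7.35% of all genes, and all 4 rose. GSPT2, a translation termination factor gene, rose by 2.93 ± 0.16 (limma adjusted p = 0.000339), with 1.84 on the third pair, and NUDT11 by 1.70 ± 0.27 (adjusted p = 0.0162), with 0.65. Both are among the neighbours of XAGE1A and XAGE1B, which rose in DU145, and equally of SSX2, SSX2B and SSX7, which did not pass there. MAGED1, the nearest measured gene on the same side, had a change of -0.41 (adjusted p = 0.525, 0.0343 with the block) and -0.74 on the third pair. POLA1, a subunit gene of DNA polymerase alpha, rose by 1.08 ± 0.17 (limma adjusted p = 0.0159). It is the farthest of the 3 measured genes before MAGEB2, and IL1RAPL1 and VENTXP1, which lie between, had changes of -0.03 and 0.02. POLA1 is equally a neighbour of MAGEB1, MAGEB3 and MAGEB4, which did not pass. RBM3, the farthest of the 3 measured genes after SSX1, rose by 1.67 ± 0.27 (adjusted p = 0.0160). In 22Rv1, 1 of the 53 (1.89%) passed, against 3.85% of all genes: EBP had a change of -0.75 ± 0.15 (adjusted p = 0.0482), with 0.29 on the third pair. The measured neighbours of MAGEC2 (LDOC1, SPANXB1, SOX3, UBE2NL, FMR1 and AFF2) had changes from -0.59 to 0.01 in 22Rv1, with 0 past the threshold without the block and LDOC1 past it with the block (0.0369). Over the 53 neighbours 8 rose and 3 fell in DU145 with the block, and 2 rose and 7 fell in 22Rv1. Of all genes, 14% rose and 12.6% fell in DU145 with the block, and 9.98% rose and 7.68% fell in 22Rv1.

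MAGEC2 had the largest change of any member, and the 5 probe sets of other genes with the smallest Euclidean distance to it were sought, in log2 values of the 8 arrays centred on the mean of each line. They were of LYN (202625_at, distance 0.94, and 202626_s_at, 1.18), GSTA1 (1.11), LUM (1.16) and NR5A2 (1.25). LYN, a SRC-family kinase gene, had a change of 4.19 in 22Rv1 and 0.12 in DU145. GSTA1, a glutathione transferase gene, had 6.17 and 0.01, and NR5A2, a nuclear receptor gene, 4.26 and -0.38. On the third pair in 22Rv1 these 3 had 3.95, 6.11 and 3.96. LUM, the lumican gene, had a change of 6.04 over replicates 1 and 2 and 1.20 on the third pair. The likeness is a description over 8 arrays of 4 groups.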

How the data were processed

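Probe-set intensity on a linear scale was deposited by the authors in separate tables for the 8 and the 4 arrays. Within 1e-05, 100% of the values have a log2 of 2 decimals. The submitters' processing notes name MAS5 and RMA without saying which made what. Gene symbols came from the supplied platform annotation, and chromosomes from RefSeq on GRCh38.p14.

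Values were taken as log2(intensity + 16). The 8 arrays of replicates 1 and 2 entered 1 fit in R 4.3.3 (limma 3.58.1), with a term per group, no filter and no block (4 residual and 2.91 prior degrees of freedom), and p-values were adjusted over 22215 probe sets. The fit was tested on simulated data. Replicate 3 gave differences only. Where groups are said to overlap or to be apart, intensities of both array types are pooled, although they may not be comparable. The 5th percentile was 12.0 and 12.3 on replicate 3 of DU145-DR and DU145, and 35.8 to 38.6 on their replicates 1 and 2. The number of arrays limits the precision.

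The members and the other gene lists were chosen with earlier results of these data known. Named are members past the threshold or above the 60th percentile on every array of a group, up to 4 genes per list and line past the threshold, and the 5 probe sets most like the member with the largest change. Some genes of the lists and some neighbours that did not pass without the block are named as well, outside this rule. Of matching probe sets, 9 were on the larger array type alone, and 1 with a further symbol was left out.

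The replicate numbers were checked for pairing. How far replicate 1 departs from the mean of its group correlated across probe sets at 0.747 between DU145-DR and DU145 and at 0.787 between 22Rv1-DR and 22Rv1, against 0.0662 to 0.0975 across lines. With 2 numbers per group this rests on the data, as the labels do not say what a number shares, so values with the block (2 residual and 2.73 prior degrees of freedom) stand beside the member calls they change, and as counts for the other lists. Other alternatives were pseudocounts of 1 and 64, filters at the 40th and 60th percentile, quantile normalization, arrays shifted to 1 median, only the 4 arrays compared, 12 arrays with the array type as a block, eBayes with a trend, members not prone to cross-hybridization, percentile levels of 50 and 75, and leaving out each replicate.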

Additional observations from a re-analysis of the deposited data

Results flagged for a closer look

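The test of the difference between the lines (22Rv1 change minus DU145 change, limma) was past the threshold for 4 probe sets. It was 5.07 for MAGEC2 (changes of 5.11 in 22Rv1 and 0.04 in DU145). It was -4.33 for XAGE1A;XAGE1B, which moved in opposite directions (-1.73 in 22Rv1 and 2.60 in DU145). It was -2.84 for MAGEB2 (-0.04 in 22Rv1 and 2.80 in DU145), with -0.02 on the third pair. It was 1.00 for CTAGE8;CTAGE4;CTAGE9;CTAGE15 (0.06 in 22Rv1 and -0.93 in DU145), with 0.77 on the third pair.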

How the results depend on the processing

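Counts of members past the threshold were recomputed under each alternative of the fit, except that the 4-array fits hold 1 line and give no difference between the lines. Counts above a percentile were recomputed at the other 2 levels. For DU145 upward (2), it was 1 with only the 4 arrays compared and 1 with 12 arrays, and 1 to 2 when replicates were left out in turn. For DU145 downward (1), it was 0 without members prone to cross-hybridization, 2 at a pseudocount of 64, 0 with the 4 arrays compared, 0 with 12 arrays, 4 with the replicate block and 0 to 1 on leaving out replicates. For 22Rv1 upward (1), it was 0 without prone members, 7 with the replicate block and 1 to 1 on leaving out replicates. For 22Rv1 downward (1), where the calls added by the pseudocount, quantile normalization and the median shift are of SSX, it was 2 at a pseudocount of 64, 3 with quantile normalization, 2 with arrays shifted to 1 median, 0 with 12 arrays, 15 with the replicate block and 0 to 1 on leaving out replicates. For the difference between the lines upward (2), it was 0 without prone members, 7 with the replicate block, and 1 at a pseudocount of 1, with the filter at the 40th percentile, quantile normalization, the shift to 1 median, 12 arrays or a trend, and 1 to 1 on leaving out replicates. Downward (2), it was 1 at a pseudocount of 64, 1 with 12 arrays, 13 with the replicate block and 1 to 2 on leaving out replicates. Members above the percentile level on every array numbered 6 in DU145-DR and 5 in DU145 at the 50th percentile, and 0 in DU145 at the 75th, against 3 and 2 at the 60th. The cause of these moves was not tested.

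Without 22Rv1 replicate 1 the change of SSX4B;SSX4 (210394_x_at) was 0.0106 in 22Rv1 and 0.0361 for the difference between the lines, against -0.69 and -0.66 with all arrays. Leaving out replicates in turn gave it a range of -1.38 to 0.0106 in 22Rv1 and -1.36 to 0.0361 for the difference. Over single members and alternatives 745 values kept direction and call, 44 gained a call, 32 lost it and 2 changed sign. MAGEC2 in 22Rv1 (3.97 to 5.84) and XAGE1 in DU145 (2.35 to 3.28) kept their direction in all 18 alternatives. Both passed in each of those that left at least 2 arrays per group. The percentile filters among them are no separate check for MAGEC2. It was low on every array of DU145-DR, DU145 and 22Rv1, so it can clear a filter only through 22Rv1-DR, where it is high. The shared probe sequences of gene copies and values near the floor limit what any setting can resolve.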

Other observations

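The larger array type holds 9 further probe sets that match the name rule, with 1 array per group and no test. CT45 genes, a tandem family on chromosome X, have a pair of them, each naming several copies. Probe set 235700_at read 24.1 in 22Rv1-DR, against 60.5 in 22Rv1, and 12.7 in DU145-DR, against 18.1 in DU145. Probe set 1567912_s_at read 14.4 in 22Rv1-DR, against 36.0 in 22Rv1, and 9.9 in DU145-DR, against 10.7 in DU145. The changes in 22Rv1 were -0.93 and -0.77, at levels no higher than percentile 59.2 of an array. MAGEA2B;MAGEA2 (1553830_s_at) read 1097.5 in 22Rv1-DR, against 1184.4 in 22Rv1, and 12.5 in DU145-DR, against 10.8 in DU145, the same contrast of lines as its probe set on both array types. Probe sets of MAGEB6, MAGEB18, XAGE2, XAGE3 and PAGE5 read from 8.8 to 30.5 in the 4 groups, and the probe set named XAGE-4 from 64.4 to 88.6.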
